A study of Mus musculus with 48 samples.

Results

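The 32 genes described here encode proteins that fold, modify, admit or remove proteins in the endoplasmic reticulum (ER), together with the sensors that report on that work. They were listed by gene symbol, with earlier results of these data known, and all 32 were found among the 55487 genes of the count table. They fall into 5 classes: 11 chaperones and their partners, 5 enzymes of disulfide bond formation, 10 genes of ER-associated degradation (ERAD), 4 sensors and transducers, and 2 subunits of the translocon. The samples were slices of kidney of male mice, kept and treated outside the body, with C57BL/6J and DBA/2J as the strains compared, and RNA from each slice sample was sequenced in bulk. Each strain was studied under 8 conditions with 3 samples each, giving 16 groups and 48 libraries. The nephrotoxicity arm held controls, tunicamycin and cyclosporin A, each at 6 h and 24 h. The oxygen arm held slices labelled normoxia, which the labels call an ischemia model, and slices labelled normoxia-hyperoxia, called a reperfusion model, both titled 24 h. The labels number the samples as biological replicates, but do not say whether slices of different conditions came from the same mice, and p-values measure the spread between these samples. Drug doses, the mice's age, the oxygen level of each condition and the time of the switch to hyperoxia are not given in the sources used here. The titles set the normoxia and normoxia-hyperoxia conditions, titled ischemia and reperfusion, apart from the nephrotoxicity experiment, and neither has a control of its own. The effect of oxygen and that of the experiment therefore cannot be told apart where normoxia or normoxia-hyperoxia is set against the controls.

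Proteins of the secretory pathway enter the ER through the Sec61 channel, receive N-linked glycans, and fold with the help of the Hsp70 chaperone BiP (Hspa5), of the lectin chaperones calnexin (Canx) and calreticulin (Calr), and of disulfide isomerases. Chains that do not fold are marked by mannose-trimming proteins of the EDEM family, moved out of the ER by the Hrd1 ligase complex (Syvn1, Sel1l, the derlins, Herpud1) and degraded. When unfolded proteins build up, 3 sensors, IRE1 (Ern1), ATF6 and PERK (Eif2ak3), start the unfolded protein response: IRE1 splices Xbp1 mRNA into the form that encodes an active transcription factor, cleaved ATF6 and XBP1 raise chaperone and ERAD genes, and PERK slows translation and raises ATF4 and CHOP. The kidney's proximal tubule is rich in membrane and secretory proteins, and tunicamycin, which blocks N-linked glycosylation, is a standard inducer of this response. Gene counts do not separate spliced from unspliced Xbp1, nor measure sensor activation or protein.

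ATF6 and XBP1 act through a promoter sequence, the ER stress response element (ERSE), in which CCAAT and CCACG are held 9 bases apart, and through a shorter form, ERSE-II. RefSeq promoter windows on GRCm38.p6, each from 250 bases before to 50 after a gene's start, were found for 27 of the 32 genes. An ERSE, searched on both strands as CCAAT, any 9 bases and CCACG, was present in 9 of these 27 genes (33.3%), against 39 of all 32851 windows (0.119%). Counts over all windows, here and below, include the 28 windows of the 27 genes. Genes and motifs were both chosen as known parts of this response, so the shares are a description and not a test. The 9 genes carried 10 matches, shown here because ATF6 and XBP1 are known to act through these letters. Each is written 5′ to 3′ along the motif, with the 10 fixed letters in capitals:

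Hspa5: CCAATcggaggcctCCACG, chr2:34772025-34772043, plus strand
Hsp90b1: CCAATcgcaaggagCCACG, chr10:86705638-86705656, minus strand
Hsp90b1: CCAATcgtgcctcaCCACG, chr10:86705533-86705551, plus strand
Calr: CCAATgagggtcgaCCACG, chr8:84847075-84847093, plus strand
Canx: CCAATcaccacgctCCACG, chr11:50325800-50325818, minus strand
Dnajc3: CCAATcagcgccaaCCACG, chr14:118937827-118937845, plus strand
Creld2: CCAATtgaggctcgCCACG, chr15:88819520-88819538, minus strand
Pdia6: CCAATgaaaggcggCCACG, chr12:17266491-17266509, plus strand
Syvn1: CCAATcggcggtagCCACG, chr19:6046532-6046550, plus strand
Derl3: CCAATggggaagtcCCACG, chr10:75893242-75893260, minus strand

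ERSE-II, searched on both strands as ATTGG, any 1 base and CCACG, was found in 2 of the 27 (7.41%), against 12 of all windows (0.0365%):

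Herpud1: ATTGGgCCACG, chr8:94386377-94386387, plus strand
Dnajb11: ATTGGcCCACG, chr16:22857852-22857862, plus strand

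Among the chaperones the sites lay 65 bases before the start in Hspa5, 105 in Dnajc3, 126 in Creld2, 145 in Canx, 162 in Calr, and 212 and 107 in Hsp90b1. In the ERAD genes the ERSE lay 44 bases before the start of Syvn1 and 156 before that of Derl3, and the ERSE-II 52 before that of Herpud1. The Dnajb11 ERSE-II lay 8 bases after the start. The bare letters CCACG, which lies inside both motifs, was in 22 of the 27 (81.5%), against 32.8% of all windows. The core TGACGTGG of the unfolded protein response element was in 0 of the 27, against 0.676% of all windows. The letters TGATGNAA, bound by ATF4 with CHOP, were in 1 of the 27 (3.7%), Herpud1, against 3.97% of all windows. A match describes letters in these windows and is not a measurement of binding.

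The 250 bases before the start of 3 genes that the results return to often are printed whole, with the ERSE or ERSE-II in capitals. Hspa5 lies at chr2:34771840-34772089, Herpud1 at chr8:94386179-94386428 and Derl3 at chr10:75893148-75893397, all on the plus strand, so that the minus-strand ERSE of Derl3 reads there as its reverse complement.

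Hspa5: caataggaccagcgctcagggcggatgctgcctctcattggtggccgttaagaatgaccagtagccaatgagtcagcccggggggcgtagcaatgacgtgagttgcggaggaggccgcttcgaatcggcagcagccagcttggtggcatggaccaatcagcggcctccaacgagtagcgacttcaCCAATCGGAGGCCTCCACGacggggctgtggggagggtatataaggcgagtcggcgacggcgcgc
Herpud1: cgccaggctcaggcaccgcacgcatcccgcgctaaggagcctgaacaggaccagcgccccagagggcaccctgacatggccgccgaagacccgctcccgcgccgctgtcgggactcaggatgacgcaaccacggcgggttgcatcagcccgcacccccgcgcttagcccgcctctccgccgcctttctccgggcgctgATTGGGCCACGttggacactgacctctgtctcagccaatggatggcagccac
Derl3: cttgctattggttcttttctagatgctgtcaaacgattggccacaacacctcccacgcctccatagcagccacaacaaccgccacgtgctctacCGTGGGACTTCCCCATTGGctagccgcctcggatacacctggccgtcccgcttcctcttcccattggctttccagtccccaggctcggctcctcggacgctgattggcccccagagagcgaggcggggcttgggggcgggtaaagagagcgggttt

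The 48 libraries held 5619309 to 25137581 counts (median 19607361), with the second lowest at 12384733; the lowest was DBA/2J normoxia-hyperoxia replicate 2. The 32 genes took about 0.9% of all counts in the 6 h controls (0.900% ± 0.153 in C57BL/6J and 0.880% ± 0.030 in DBA/2J, SD, n = 3), 1.81% ± 0.127 and 1.67% ± 0.141 in the 24 h controls, and 0.467% ± 0.019 and 0.634% ± 0.028 in normoxia. All 10 proximal tubule markers of the list used here were measured, which matches the labelled tissue, but their summed level differed widely between conditions. Libraries of the 24 h drug groups spread over these genes, with replicate 3 the lowest in both strains with tunicamycin and in C57BL/6J with cyclosporin A, and counts that moved when a library was left out are given with and without it. In a bulk sample, fewer cells of a type and less RNA per cell cannot be told apart.

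Per length of exon, Hspa5 was the highest of the 32 genes in every control group. Levels are given as RPKM, CPM (counts per 1000000 counts of the library) divided by kilobases of annotated exon, as mean ± SD of 3 libraries. In C57BL/6J controls at 6 h, Hspa5 stood at 844 ± 260.0. Calr followed at 271 ± 4.09, P4hb, which encodes the founding protein disulfide isomerase, at 223 ± 12.2, and Hsp90b1, the ER form of Hsp90, at 213 ± 27.9. P4hb and Hsp90b1 did not differ beyond their spread. The lowest were Ern1 at 5.80 ± 0.507, Derl2 at 3.30 ± 0.384 and Derl3 at 0.422 ± 0.0770. In C57BL/6J controls at 24 h the order began with Hspa5 at 1466 ± 104, then Hsp90b1 at 598 ± 64.3 and P4hb at 575 ± 27.02, which overlapped, and Calr at 474 ± 25.1. Derl3 had moved from last to rank 25 of the 32 at 22.2 ± 4.48. In C57BL/6J normoxia Hspa5 ranked 5 at 97.9 ± 16.7, below P4hb at 224 ± 8.85, Calr at 223 ± 7.38, Pdia3 at 144 ± 6.19 and Hsp90b1 at 113 ± 10.3. P4hb and Calr were indistinguishable there, as were Hsp90b1 and Hspa5.

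**Figure D1:**
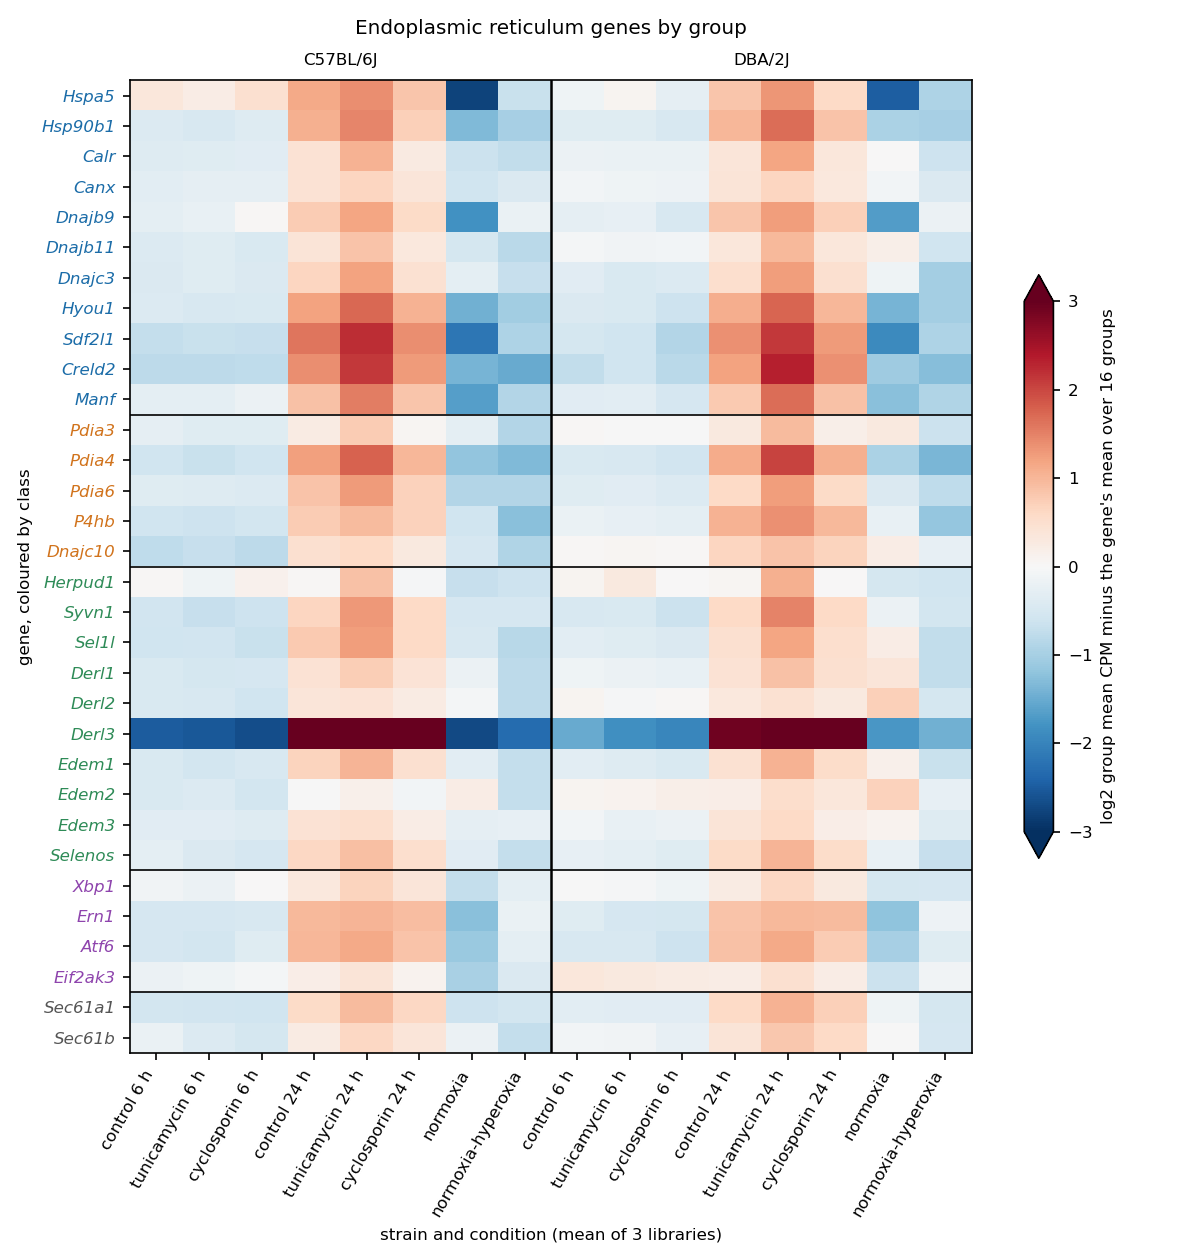
Heat map of the 32 genes (rows, by class) in the 16 groups (columns, C57BL/6J left and DBA/2J right); colour is the log2 of the group's mean CPM minus the gene's mean over the 16 groups, with values beyond -3 or 3 shown at the end colours. The 24 h controls and 24 h drug groups are the high columns for most rows and the normoxia and normoxia-hyperoxia groups the low ones, with Derl3, Sdf2l1 and Hspa5 spanning the widest ranges.

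Tunicamycin at 24 h was set against the 24 h controls to ask what blocking glycosylation did to the slices. The ER genes rose together: 23 of 32 were higher with tunicamycin and 0 were lower, against 0.97% of all tested genes higher, at an edgeR adjusted p under 0.05 over both strains. Their median log2 difference was 0.45, against 0.0094 over all genes tested. All 11 chaperones rose, with 3 of 5 disulfide enzymes, 7 of 10 ERAD genes, 1 of 4 sensors and transducers (Xbp1) and 1 of 2 translocon subunits. In 16 of the 32, every tunicamycin library lay above every control of its strain, against 1.4% of tested genes.

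Among the chaperones the largest rise was that of Creld2, which encodes an ER protein released under stress. In C57BL/6J, Creld2 was at 197, 160.2 and 218 CPM in the 24 h controls and at 363, 357 and 228 with tunicamycin. In DBA/2J it was at 181, 171 and 155 CPM and 404, 389 and 307. The groups did not overlap in either strain, with C57BL/6J tunicamycin replicate 3 nearest to its controls. The log2 difference over both strains was 0.92 ± 0.12 (SE, adjusted p = 0.0061 by edgeR), or 1.90-fold. Hspa5 in C57BL/6J was at 6563, 5713 and 6328 CPM in the controls and 8560.4, 7688 and 6133 with tunicamycin, and replicate 3 lay within the controls. The DBA/2J libraries were at 5487, 5179 and 4366 CPM and 7560.1, 7499 and 6340.2, without overlap. Hspa5 rose by 0.39 ± 0.088 (SE, adjusted p = 0.044). Dnajb9, a J-domain partner of BiP that also restrains IRE1, was at 211, 172 and 196 CPM in C57BL/6J controls and 276, 290.3 and 210.0 with tunicamycin. Its DBA/2J values were 238, 194 and 182 CPM and 296, 272 and 254. C57BL/6J tunicamycin replicate 3 was at the level of its highest control, so that strain's groups overlapped, and Dnajb9 rose by 0.43 ± 0.089 (SE, adjusted p = 0.035). The remaining chaperones rose by 0.23 (Canx) to 0.78 (Manf, an ER-resident trophic factor that binds BiP), with Calr at 0.72, Sdf2l1, a partner of the Dnajb11 co-chaperone, at 0.67, Dnajc3 at 0.66 and the nucleotide exchange factor Hyou1 at 0.59.

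Of the disulfide enzymes, Pdia4 (ERp72) rose most. In C57BL/6J it was at 514, 451 and 543 CPM in the controls and 855, 804 and 539.6 with tunicamycin. DBA/2J libraries held 501, 471 and 409 CPM and 1024, 854 and 739.9. The C57BL/6J groups overlapped only through tunicamycin replicate 3, and the log2 difference was 0.74 ± 0.11 (SE, adjusted p = 0.01 by edgeR). Pdia3, which works with calnexin and calreticulin, rose by 0.59 and Pdia6 by 0.55. P4hb at 0.25 (adjusted p = 0.14) and the reductase Dnajc10 at 0.17 (adjusted p = 0.15) did not pass.

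The ERAD genes held the largest differences of all 32. Derl3, a derlin of the retrotranslocation complex, was at 50.7, 34.1 and 48.2 CPM in C57BL/6J controls and 107, 123 and 51.4 with tunicamycin. In DBA/2J it was at 29.7, 42.8 and 34.4 CPM and 125, 124 and 92.4. Neither strain's groups overlapped, though C57BL/6J replicate 3 lay just above its highest control, and the log2 difference was 1.38 ± 0.21 (SE, adjusted p = 0.018 by edgeR), or 2.61-fold. Herpud1, which gathers the Hrd1 complex at the membrane, was at 259, 231 and 267 CPM in C57BL/6J controls and 507, 523 and 331 with tunicamycin. The DBA/2J libraries were at 269, 249.9 and 249.3 CPM and 554, 542 and 455. No library of one condition reached the other, and Herpud1 rose by 0.94 ± 0.10 (SE, adjusted p = 0.0017), or 1.91-fold. The ligase Syvn1 rose by 0.78 and its partner Sel1l by 0.58, with Edem1 at 0.48, Derl1 at 0.38 and Selenos, which recruits the extracting ATPase, at 0.38. Derl2 (0.11), Edem2 (0.25) and Edem3 (0.15) did not pass, with adjusted p of 0.63, 0.11 and 0.23.

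Of the sensors and transducers, Xbp1 alone passed. It was at 222, 210.4 and 227 CPM in C57BL/6J controls and 305, 307 and 231 with tunicamycin. Its DBA/2J values were 208, 212 and 205 CPM and 282, 289 and 246. The groups did not overlap, and Xbp1 rose by 0.37 ± 0.066 (SE, adjusted p = 0.015 by edgeR). The sensors themselves were at 0.077 for Ern1, 0.21 for Atf6 and 0.24 for Eif2ak3, with adjusted p of 0.72, 0.14 and 0.12. In the translocon, Sec61a1, the channel itself, was at 261, 248 and 269 CPM in C57BL/6J controls and 364, 365 and 277 with tunicamycin. DBA/2J libraries held 281, 259.6 and 248 CPM and 392, 375 and 308. The groups did not overlap, and Sec61a1 rose by 0.41 ± 0.074 (SE, adjusted p = 0.015), while Sec61b, its small subunit, was at 0.41 (adjusted p = 0.096).

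**Figure D2:**
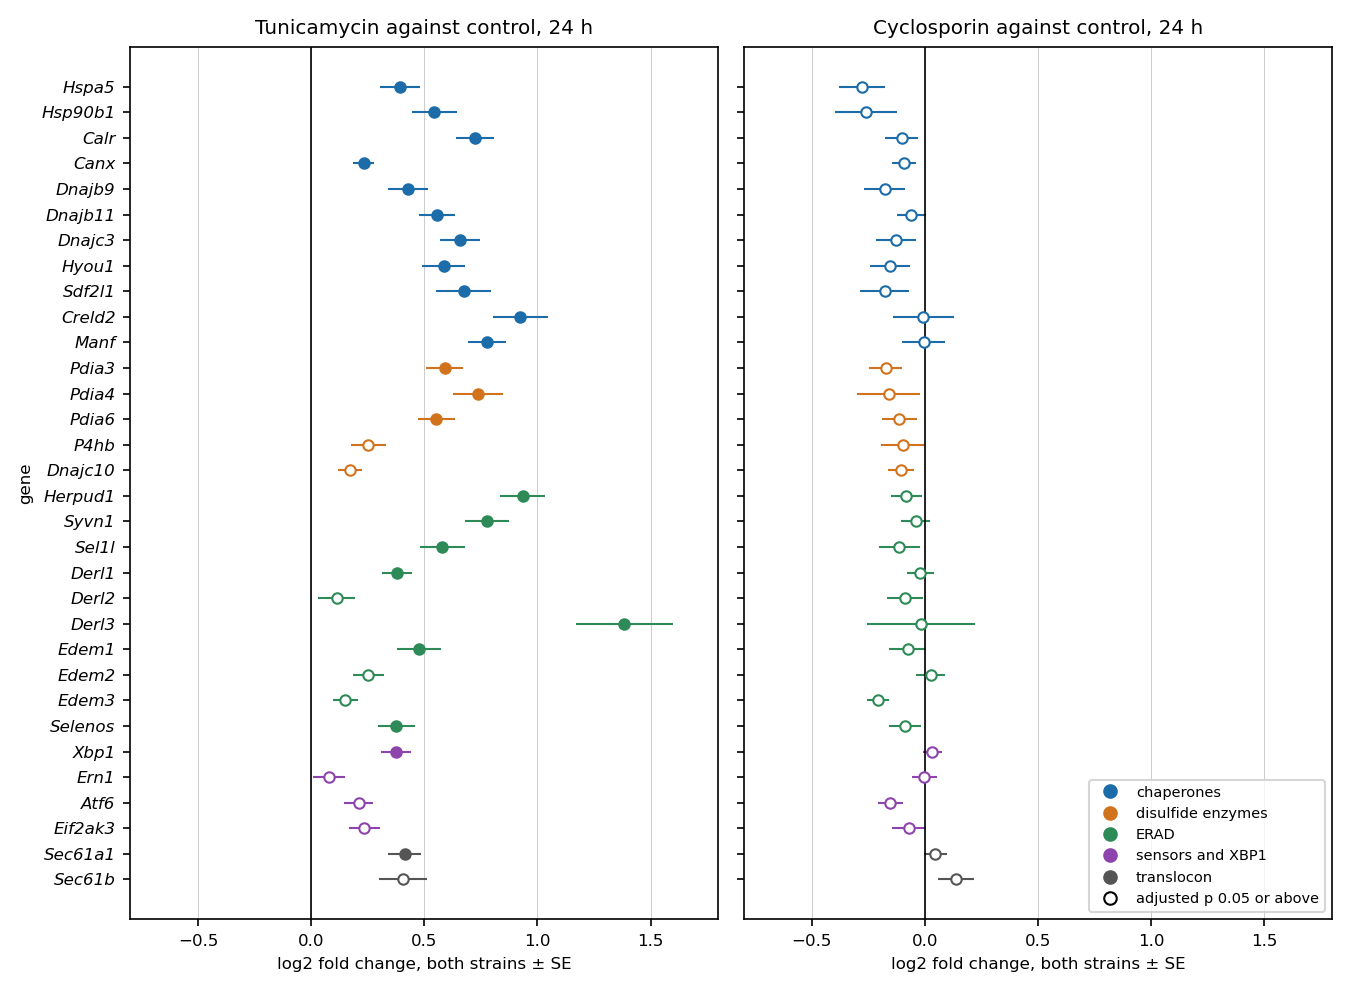
Log2 difference from the 24 h controls over both strains (points, with bars of 1 SE) for the 32 genes with tunicamycin at 24 h (left) and cyclosporin A at 24 h (right); filled points passed an edgeR adjusted p under 0.05. With tunicamycin 23 points are filled, led by Derl3 at 1.38; with cyclosporin A none is filled.

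By strain, DBA/2J alone gave 10 of 32 higher (0.201% of all genes) and C57BL/6J alone gave 0 (0% of all genes), with 23 at an unadjusted p under 0.05 and 8 by DESeq2. The strains' responses were not shown to differ: the test of the difference itself called 0 of 32 by edgeR (0% of all genes), 0 at an unadjusted p under 0.05 and 0 by DESeq2. All 32 differences were positive, the larger rise being in DBA/2J, with a median of 0.19 against 0.011 over all genes. The 32 genes share the same libraries, so their common sign is not a set of separate observations. The single-strain counts moved with the method: DESeq2 gave 22 in DBA/2J, total counts gave 3 there, and the fit of all 48 libraries gave 18 in DBA/2J and 5 in C57BL/6J. In tunicamycin replicates 1, 2 and 3 of C57BL/6J, the median log2 ratio of the 32 genes to the control mean was 0.58, 0.49 and 0.089, and 32, 30 and 16 of the genes lay above all 3 controls. In DBA/2J these were 0.63, 0.61 and 0.36, with 31, 32 and 30 genes. Without C57BL/6J tunicamycin replicate 3, the C57BL/6J count was 14, the DBA/2J count 21 and the count over both strains 26. The count over both strains was 12 without C57BL/6J control replicate 2, 15 without control replicate 3, 13 without C57BL/6J tunicamycin replicate 1 and 11 without DBA/2J control replicate 3. The DBA/2J count was 0 to 4 when any 1 of the 6 controls or 3 DBA/2J tunicamycin libraries was left out. Over 18 alternative settings, Creld2, Pdia4 and Herpud1 passed in all, Xbp1 and Sec61a1 in all but 3 each, Derl3 in all but 6, and Hspa5 (adjusted p 0.0021 to 0.23) failed in 13 and Dnajb9 (0.0015 to 0.11) in 12. Edem1 failed in 12, Selenos in 11, Sdf2l1 in 10, Canx in 8, Hsp90b1 in 6, Sel1l in 3 and Derl1 in 2.

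Genes with an ERSE or ERSE-II are set beside the others as a description. All 11 with either motif were among those that rose with tunicamycin, with a median log2 difference of 0.66 (range 0.23 to 1.38). Of the 16 genes whose window held neither, 8 rose, with a median of 0.38 (0.077 to 0.74). Of the 5 with no window, 4 rose, with a median of 0.41. The gap was not present in every comparison: between the 24 h and 6 h controls the medians were 0.75 with a motif (10 of 11 higher) and 0.68 without (13 of 16 higher), and with cyclosporin A at 24 h both were -0.09.

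The rest of the pathway is given from lists of genes that are not among the 32. Of 20 genes of the PERK-ATF4-CHOP arm, 6 rose and 0 fell, led by Ddit3, which encodes CHOP, at 0.82 (adjusted p = 0.0017 by edgeR), Chac1, a glutathione-degrading CHOP target, at 0.62 (adjusted p = 0.0027) and the pseudokinase Trib3 at 0.41 (adjusted p = 0.038). Of 30 further genes of ER folding and quality control, 9 rose and 0 fell, led by the prolyl isomerase Fkbp11 at 1.52 ± 0.14 (SE, adjusted p = 0.0015), the oxidase Ero1b at 0.79 and Pdia5 at 0.63. Of 22 genes of translocation and signal sequence processing, 4 rose and 0 fell, among them the translocon-associated Ssr2 at 0.37, the receptor subunit Srprb at 0.33 and Tram1 at 0.29. Of the 9 kidney and blood cell marker lists, 0 tested genes passed by edgeR and 0 reached an unadjusted p under 0.05, and summed proximal tubule markers overlapped between tunicamycin (1476 to 3992 CPM in C57BL/6J, 3607 to 6339 in DBA/2J) and controls (1652 to 2392 and 3777 to 6823). Summed B and plasma cell genes were at 11.88 to 66.92 CPM in C57BL/6J and 22.11 to 49.42 in DBA/2J with tunicamycin, overlapping the controls at 7.37 to 15.03 and 27.94 to 99.69.

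At 6 h tunicamycin left no detectable mark on these genes. None of the 32 passed (0 by edgeR, 0 at an unadjusted p under 0.05 and 0 by DESeq2), as for all genes (0%). Hspa5 was at 2632, 4779 and 3295 CPM in C57BL/6J controls at 6 h and 3858, 3334 and 2656 with tunicamycin. In DBA/2J it was at 2641, 2466 and 2722 CPM and 2462, 3812 and 2748. The groups overlapped fully, with C57BL/6J control replicate 2 the highest control, and the log2 difference was 0.039 ± 0.17 (SE). Herpud1 was at 209, 316 and 229 CPM in C57BL/6J controls and 229, 236 and 210.0 with tunicamycin. The DBA/2J libraries were at 253, 266 and 259.6 CPM and 301, 341 and 257. The difference was 0.022 ± 0.11 (SE), with Dnajb9 at 0.04 ± 0.16 and Xbp1 at -0.058 ± 0.10. Derl3 was at 0.724 to 0.931 CPM in C57BL/6J and 0.866 to 1.58 in DBA/2J with tunicamycin, near the 0.724 to 1.01 and 1.32 to 1.94 of the 6 h controls.

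The difference between the 24 h and the 6 h tunicamycin response was tested in 1 fit of the 24 libraries. It passed for 10 of 32 genes, all with the larger response at 24 h, against 0.135% of all genes, and 18 of 32 by DESeq2. The 10 were Calr (0.73, adjusted p = 0.0062), Dnajb11 (0.55), Dnajc3 (0.67), Creld2 (0.86), Manf (0.76), Pdia3 (0.65), Pdia4 (0.79), Pdia6 (0.56), Herpud1 (0.91, adjusted p = 0.017) and Syvn1 (0.83, adjusted p = 0.0062). Hspa5 at 0.35 (adjusted p = 0.85) and Derl3 at 1.56 ± 0.37 (SE, adjusted p = 0.14 by edgeR) did not pass. Of the marker genes 0 passed by edgeR, and 2, both fibroblast genes, reached an unadjusted p under 0.05; all 5 fibroblast genes were positive, and their part was not tested. The count was 19 without C57BL/6J tunicamycin 24 h replicate 3, and 5 or 6 without C57BL/6J control 24 h replicate 2, DBA/2J control 24 h replicate 3, DBA/2J control 6 h replicates 1 or 3, C57BL/6J tunicamycin 6 h replicates 2 or 3, DBA/2J tunicamycin 6 h replicate 1, C57BL/6J tunicamycin 24 h replicates 1 or 2, or DBA/2J tunicamycin 24 h replicates 1 or 2.

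Cyclosporin A, a calcineurin inhibitor given against transplant rejection and known for kidney toxicity, was not accompanied by a detectable change in these genes. At 6 h, 0 of 32 passed by edgeR (1 at an unadjusted p under 0.05, 0 by DESeq2), and at 24 h again 0 (4 at an unadjusted p under 0.05, 0 by DESeq2), with 0% of all genes at either time. At 24 h, 28 of the 32 differences were negative, with a median of -0.090. Hspa5 was at 5508, 5339.7 and 4365 CPM in C57BL/6J and 3552, 3939 and 5373 in DBA/2J, a log2 difference from the controls of -0.28 ± 0.10 (SE, adjusted p = 0.66 by edgeR). Herpud1 was at -0.082 ± 0.069, Dnajb9 at -0.18 ± 0.091, Xbp1 at 0.034 ± 0.043 and Derl3 at -0.015 ± 0.24 (SE). The libraries of a group spread widely: in C57BL/6J replicate 3, 31 of the 32 genes lay below all 3 controls (median log2 ratio -0.30), while in DBA/2J replicate 3, 20 lay above all 3 controls (median 0.13) and in DBA/2J replicate 1, 22 lay below them (median -0.18).

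Set directly against cyclosporin A at 24 h, tunicamycin gave the higher level in 25 of 32 genes and the lower in 0, against 0.847% of all genes higher. The median log2 difference was 0.61, and in 21 of the 32 the libraries did not overlap in either strain (0.952% of all genes). The drugs are not structural relatives and their doses are not given, so this sets the 2 treatments side by side without matching them. Creld2 was at 181, 205 and 141 CPM in C57BL/6J with cyclosporin A and 142, 172 and 252 in DBA/2J, and tunicamycin was higher by 0.93 ± 0.16 (SE, adjusted p = 0.023 by edgeR). Pdia4 was at 486, 465 and 326 CPM and 340.1, 403 and 606 with cyclosporin A, with a difference of 0.89 ± 0.17 (SE, adjusted p = 0.031). Herpud1 was at 256, 245 and 216 CPM and 238, 218 and 286, with a difference of 1.02 ± 0.11 (SE, adjusted p = 0.0032). All 3 were below every tunicamycin library of their strain. Among the sensors Atf6 differed by 0.36 ± 0.063 (SE, adjusted p = 0.015), with 244, 268 and 221 CPM in C57BL/6J and 221, 239.9 and 231 in DBA/2J with cyclosporin A and 312, 324 and 266 and 302, 325 and 266 with tunicamycin, and the C57BL/6J groups overlapped. Hspa5 (0.67, adjusted p = 0.012), Dnajb9 (0.60, adjusted p = 0.0087), Xbp1 (0.34, adjusted p = 0.034) and Sec61a1 (0.36, adjusted p = 0.037) also passed, while Derl3 at 1.4 ± 0.28 (SE) missed with adjusted p = 0.053. The count was 10 without C57BL/6J cyclosporin A replicate 3, 16 without its replicate 1 and 15 without C57BL/6J tunicamycin replicate 1. With total counts in place of the scaling factors, the higher share of all calls moved from 64.9% to 51.7%.

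**Figure D3:**
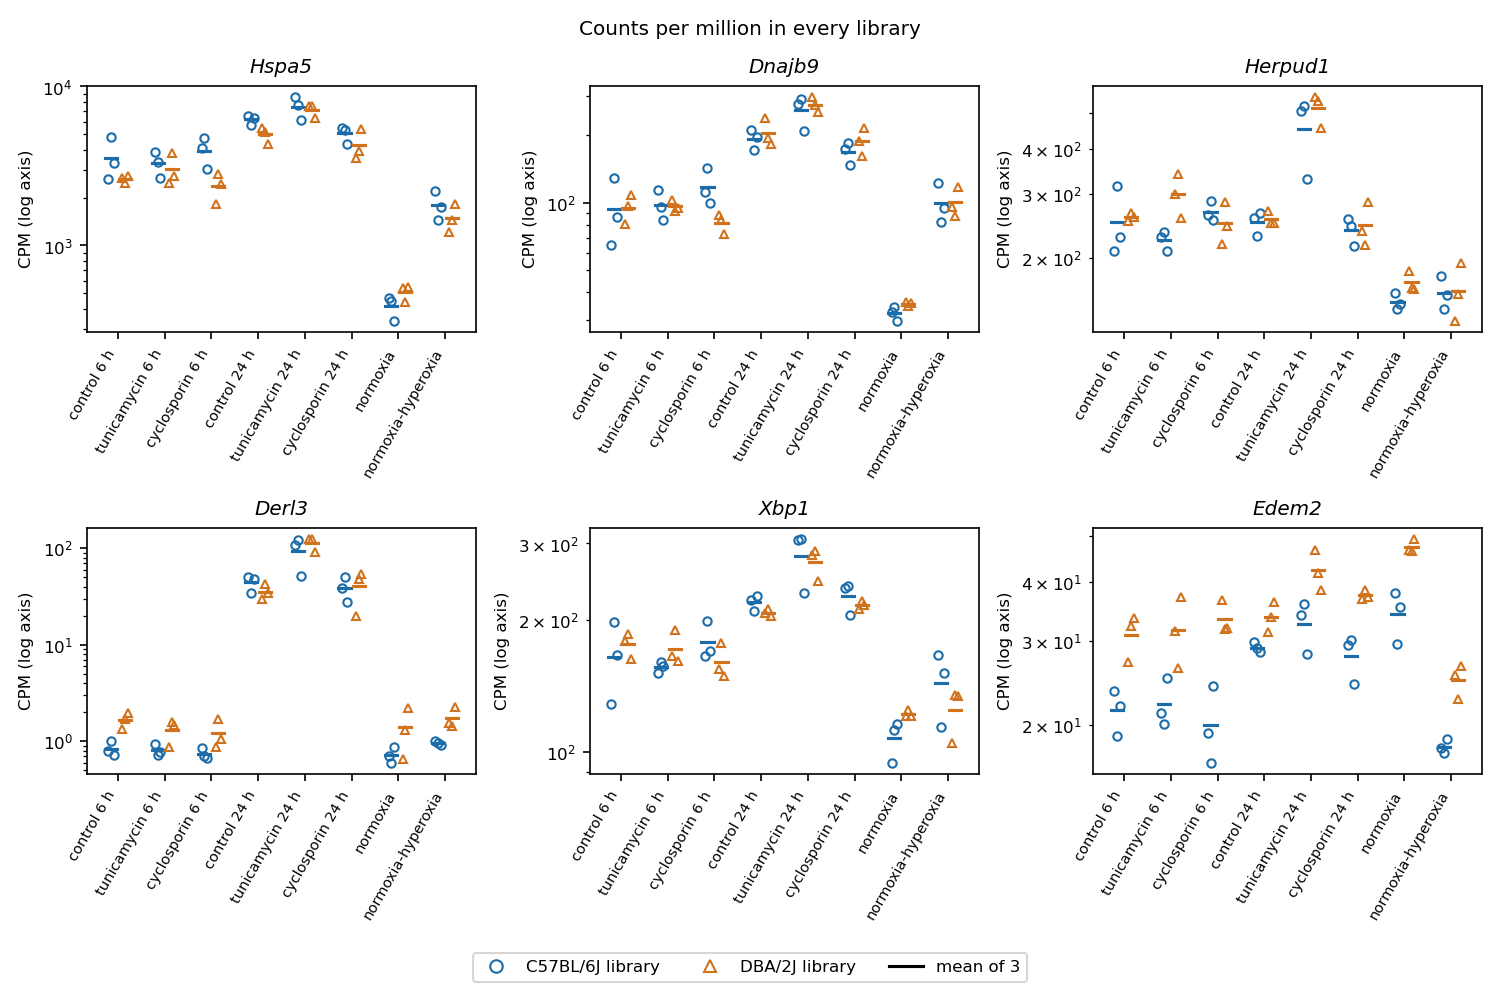
CPM of Hspa5, Dnajb9, Herpud1, Derl3, Xbp1 and Edem2 (log axis) in each of the 48 libraries by condition; circles are C57BL/6J, triangles DBA/2J and bars the mean of 3. Derl3 sits near 1 CPM at 6 h and in both oxygen conditions and between 20.03 and 125 CPM in all 18 other 24 h libraries, and Hspa5 is lowest in normoxia in both strains.

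Longer culture went with higher levels of nearly all these genes. Between the 6 h and 24 h controls, 28 of 32 were higher at 24 h and 1 was lower, against 34.7% of all genes higher and 37.4% lower. The median log2 difference was 0.74, against -0.019 over all genes, and in 27 of 32 every 24 h library lay above every 6 h library of its strain (35.2% of all genes). All 11 chaperones and all 5 disulfide enzymes rose, with 8 of 10 ERAD genes, 2 of 4 sensors and transducers and both translocon subunits. The calls of Pdia3 (adjusted p up to 0.094) and Sec61b (up to 0.12) were lost in 7 of 18 alternative settings each. These comparisons share the 24 h controls with the drug and oxygen comparisons.

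Sdf2l1 led the chaperones. In C57BL/6J it was at 26.3, 34.7 and 22.1 CPM at 6 h and 148, 124 and 143 at 24 h. Its DBA/2J values were 31.9, 29.6 and 33.4 CPM and 119.9, 131 and 102. The groups were far apart, with a log2 difference of 1.89 ± 0.11 (SE, adjusted p = 1.8e-09 by edgeR), or 3.71-fold. Creld2 rose by 1.85, Hyou1 by 1.35, Hsp90b1 by 1.21, Dnajb9 by 0.86 ± 0.16 and Hspa5 by 0.65 ± 0.13 (SE, adjusted p = 3.0e-04). Hspa5 ranged from 2466 to 4779 CPM over the 6 controls at 6 h, and each strain's 24 h libraries all lay above its 6 h libraries. Pdia4 led the disulfide enzymes, from 122, 160.1 and 140.0 CPM in C57BL/6J and 156, 150.4 and 166 in DBA/2J at 6 h to the 24 h values above, a difference of 1.48 ± 0.084 (SE, adjusted p = 1.5e-09). P4hb rose by 1.08 and Pdia3 by 0.18.

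Derl3 changed most of all 32. It was at 0.783, 1.01 and 0.724 CPM at 6 h in C57BL/6J and 1.32, 1.71 and 1.94 in DBA/2J, against 34.1 to 50.7 and 29.7 to 42.8 CPM at 24 h. The log2 difference was 4.86 ± 0.16 (SE, adjusted p = 1.1e-11 by edgeR), or 29.02-fold. Derl3 is abundant in secretory cells, so B and plasma cell genes are given beside it: their summed level was 23.21 to 34.09 CPM at 6 h and 7.37 to 15.03 at 24 h in C57BL/6J, and 147.3 to 503.7 and 27.94 to 99.69 in DBA/2J, and 3 of the 5 tested genes of that list fell and 0 rose. The other derlins rose by 0.51 (Derl1) and 0.31 (Derl2), Syvn1 by 0.94 and Sel1l by 0.88. Herpud1 was the 1 member that fell, by 0.22 (adjusted p = 0.045 by edgeR), but its 6 h and 24 h groups overlapped. That call was lost in 14 of 18 alternative settings (adjusted p up to 0.95), among them total counts (-0.0067). Edem2 was at 0.069 (adjusted p = 0.43).

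Atf6 and Ern1 rose, at 1.21 ± 0.10 (SE, adjusted p = 4.5e-08 by edgeR) and 1.14. Atf6 was at 78.1, 121 and 89.02 CPM at 6 h and 280.0, 248 and 284 at 24 h in C57BL/6J. DBA/2J libraries held 90.02, 101 and 102 CPM and 249.7, 265 and 234, with no overlap in either strain. Eif2ak3 was at -0.087 (adjusted p = 0.37) and Xbp1 at 0.11 ± 0.089 (SE, adjusted p = 0.26), although the CPM of Xbp1 did not overlap between the times (129, 198 and 167 CPM at 6 h against 210 to 227 at 24 h in C57BL/6J). Sec61a1 rose from 115, 130.2 and 111 CPM in C57BL/6J and 135, 134 and 146 in DBA/2J at 6 h, by 0.81 ± 0.066 (SE, adjusted p = 5.1e-08). The strains' changes with time differed for 0 of 32 by edgeR (0.69% of all genes), 6 at an unadjusted p under 0.05 and 1 by DESeq2, and for 1 without C57BL/6J control 6 h replicate 1 or 2.

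Of the PERK-ATF4-CHOP arm, 16 of 20 genes were higher at 24 h and 4 lower. The largest rises were those of the cystine transporter Slc7a11 (4.5), the serine synthesis enzyme Phgdh (2.99) and the secreted protein Stc2 (2.67), while Atf3 (-1.76), Chac1 (-0.56) and Ddit3 (-0.52) fell. Of the other ER folding genes 16 of 30 rose and 10 fell, beside the 34.7% of all genes that rose and 37.4% that fell, and of the translocation genes 16 of 22 rose and 3 fell. Kidney cell markers moved with time as well: 10 of 10 proximal tubule genes and every gene of the loop of Henle (4), distal tubule (4), collecting duct (7) and podocyte (5) lists fell, as did 4 of 6 endothelial and 4 of 7 macrophage and leukocyte genes with 1 of each higher. Summed proximal tubule markers were at 9464 to 17350 CPM at 6 h and 1652 to 2392 at 24 h in C57BL/6J, and at 19150 to 24020 and 3777 to 6823 in DBA/2J. Macrophage and leukocyte markers summed to 497 to 683 and 226.7 to 361.5 CPM in C57BL/6J, and to 634.7 to 676.9 and 303.5 to 394.6 in DBA/2J. Mitochondrial genes took 15.4% of the counts at 6 h and 6.82% at 24 h in C57BL/6J, with 8.16% and 3.52% in DBA/2J. The part of these shifts in the ER gene result was not tested. With total counts in place of the scaling factors, the median of all genes moved by 0.21 and the higher share of all calls from 48.1% to 60.4%, so the members' median of 0.74 is read beside that shift.

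**Figure D4:**
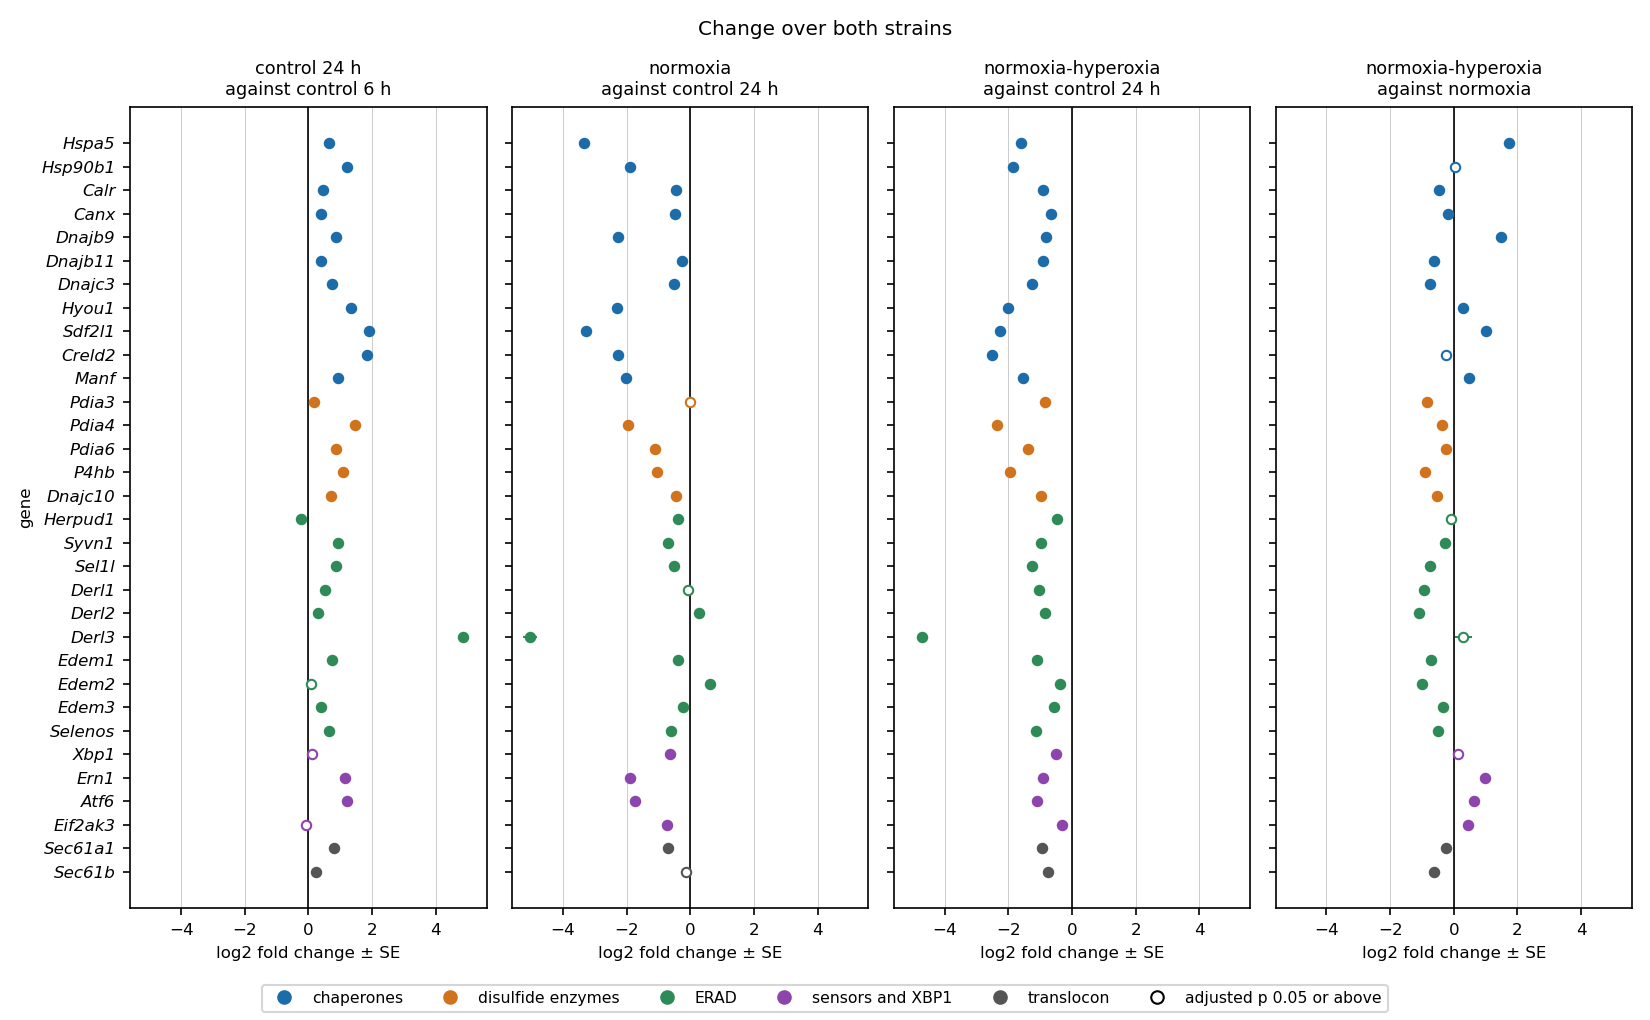
Log2 difference over both strains (points, bars of 1 SE, filled where the edgeR adjusted p was under 0.05) for the 32 genes in 4 comparisons: 24 h against 6 h controls, normoxia against 24 h controls, normoxia-hyperoxia against 24 h controls, and normoxia-hyperoxia against normoxia. The panel of time lies mostly right of 0, both panels against the 24 h controls mostly left of it, and in the last Hspa5 and Dnajb9 stand furthest right.

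The slices labelled normoxia held lower levels of the luminal chaperones than the 24 h controls. Of the 32 genes 27 were lower and 2 higher, against 39.7% of all genes lower and 42.4% higher, with a median log2 difference of -0.66, against 0.053 over all genes. In 27 the libraries lay below every control of their strain (39.9% of all genes). All 11 chaperones and all 4 sensors and transducers fell, with 4 of 5 disulfide enzymes, 7 of 10 ERAD genes and 1 of 2 translocon subunits. The class medians were -2.00 for chaperones, -1.23 for sensors and transducers, -1.04 for disulfide enzymes and -0.37 for ERAD genes.

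Hspa5 was at 464, 444 and 333 CPM in C57BL/6J normoxia and 543, 444 and 544 in DBA/2J. It fell by 3.33 ± 0.11 (SE, adjusted p = 1.3e-13 by edgeR). Sdf2l1 fell by 3.26, Hyou1 by 2.29, Creld2 by 2.27, Manf by 2.0 and Hsp90b1 by 1.9. Dnajb9 was at 32.7, 34.4 and 29.7 CPM in C57BL/6J and 36.03, 34.8 and 35.95 in DBA/2J, and fell by 2.28 ± 0.076 (SE, adjusted p = 2.2e-13). The smallest falls of the class were those of Dnajb11 (0.26), which helps BiP bind its clients, and of the lectin chaperones Calr (0.44) and Canx (0.49). Pdia4 led the disulfide enzymes, with 94.7, 97.4 and 91.5 CPM in C57BL/6J and 111, 105 and 118 in DBA/2J, and fell by 1.95 ± 0.066 (SE, adjusted p = 2.6e-13). Pdia3, the partner of the lectin chaperones, was at 0.0096 (adjusted p = 0.89).

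In ERAD, Derl3 was near its 6 h level, with 0.700, 0.594 and 0.867 CPM in C57BL/6J and 0.655, 1.30 and 2.23 in DBA/2J. It fell by 5.03 ± 0.22 (SE, adjusted p = 3.3e-10 by edgeR). Herpud1 was at 161, 145 and 149.7 CPM and 184, 166 and 165, below every control, and fell by 0.38 ± 0.059 (SE, adjusted p = 2.1e-05). Edem2, a mannosidase-like protein that starts glycan trimming of ERAD clients, went the other way: 37.8, 29.6 and 35.3 CPM in C57BL/6J against 29.8, 28.97 and 28.4 in controls, and 46.6, 46.4 and 49.2 in DBA/2J against 31.3, 33.7 and 36.2. The C57BL/6J groups overlapped narrowly at the lowest normoxia library, and Edem2 rose by 0.64 ± 0.067 (SE, adjusted p = 2.3e-07). Derl2 rose by 0.27 ± 0.074 (SE, adjusted p = 0.0038), but was at -0.0082 under total counts. Derl1 was at -0.063 (adjusted p = 0.39).

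Ern1 fell most among the sensors. It was at 134, 129.8 and 133 CPM in C57BL/6J controls and 26.9, 28.8 and 28.1 in normoxia. In DBA/2J it was at 110.3, 135 and 119 CPM and 25.9, 27.9 and 32.8, a gap in both strains, and the fall was 1.89 ± 0.064 (SE, adjusted p = 2.5e-13 by edgeR). Atf6 fell by 1.72, Eif2ak3 by 0.74 and Xbp1, at 94.1, 112 and 115 CPM in C57BL/6J and 121, 125 and 121 in DBA/2J, by 0.63 ± 0.054 (SE, adjusted p = 1.7e-08). Sec61a1 was at 113, 110.0 and 112 CPM and 150.2, 153 and 171 and fell by 0.70 ± 0.052 (SE, adjusted p = 3.0e-09), while Sec61b was at -0.14 (adjusted p = 0.14).

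The fall differed in size between the strains. In C57BL/6J alone 29 were lower and 1 higher (37.3% and 38.8% of all genes), and in DBA/2J alone 20 lower and 4 higher (35.5% and 38.8%), the 4 being Pdia3 (0.35), Derl1 (0.26), Derl2 (0.74) and Edem2 (0.82). The test of the difference itself passed for 21 of 32, all with the more positive change in DBA/2J, against 10.1% of all genes in that direction. Under total counts the share of all calls more positive in DBA/2J went from 59.6% to 37.9%. Among the genes that passed it was largest for Sel1l at 1.11 (adjusted p = 1.1e-04 by edgeR), which had 109, 104 and 103 CPM in C57BL/6J normoxia and 163, 163 and 188 in DBA/2J, against 270.3, 219.7 and 278 and 201, 225 and 196 in the 24 h controls. Derl2 (0.94), Calr (0.86), Dnajb11 (0.86) and Pdia6 (0.82) followed. The count was 12 without C57BL/6J control 24 h replicate 3, and 12 without DBA/2J control 24 h replicate 3.

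The PERK-ATF4-CHOP arm was lower in normoxia in 19 of 20 genes and higher in 1, the cysteine-forming enzyme Cth (0.90), with a median of -3.38. Slc7a11 (-8.79), Atf3 (-7.41) and Trib3 (-6.5) were lowest against the controls, with Slc7a11 at a mean of 0.189 CPM in C57BL/6J normoxia and 0.18 in DBA/2J, near the limit of counting. Of the other ER folding genes 13 of 30 were higher and 12 lower, shares near the 42.4% and 39.7% of all genes, with the hypoxia-responsive oxidase Ero1a at -5.7 and the prolyl isomerase Fkbp14 at 1.73, and of the translocation genes 4 of 22 were higher and 16 lower. Kidney cell markers differed in both directions: all 10 proximal tubule, 4 loop of Henle, 4 distal tubule and 7 collecting duct genes were higher in normoxia, as were 5 of 7 macrophage and leukocyte genes (1 lower) and 6 of 6 tested B and plasma cell genes. Lower were 4 of 5 podocyte and 2 of 5 fibroblast genes with 0 higher, and of 6 endothelial genes 2 were lower and 2 higher. Summed podocyte markers were at 906.4 to 1173 CPM in C57BL/6J and 495.5 to 665.4 in DBA/2J, against 1425 to 1687 and 751 to 1144 in the controls. Summed proximal tubule markers were at 28740 to 36100 CPM in C57BL/6J and 43650 to 47310 in DBA/2J, and their part in the ER gene result was not tested. The mitochondrial share of counts was 23.9% and 12.3% in C57BL/6J and DBA/2J normoxia, against 6.82% and 3.52% in the 24 h controls. With total counts in place of the scaling factors the median of all genes moved by -0.27 and the higher share of all calls from 51.6% to 41.5%.

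Against the 6 h controls normoxia gave a mixed picture: 8 of 32 higher and 14 lower, against 32.9% of all genes in each direction, with a median of -0.082. Of the chaperones 7 of 11 fell and 1 rose, and all 4 sensors and transducers fell. Of the ERAD genes 6 of 10 rose and 1, Herpud1, fell, and of the disulfide enzymes 1 of 5 rose and 2 fell. Hspa5 fell by 2.72 ± 0.15 (SE, adjusted p = 1.6e-09 by edgeR) and Dnajb9 by 1.47, with every normoxia library below every 6 h control. Pdia4 fell by 0.52, Herpud1 by 0.64, Xbp1 by 0.56 and Eif2ak3 by 0.87 ± 0.088 (SE, adjusted p = 6.0e-07), from 60.4, 80.5 and 62.3 CPM to 34.6, 42.1 and 41.2 in C57BL/6J and from 91.5, 107 and 95.03 to 44.9, 50.5 and 52.7 in DBA/2J. Edem2 rose by 0.66 ± 0.081 (SE, adjusted p = 4.4e-06) from 6 h values of 23.5, 18.9 and 21.9 CPM in C57BL/6J and 27.1, 32.3 and 33.5 in DBA/2J. Derl2 (0.53), Derl1 (0.41), Sel1l (0.33), Edem1 (0.32), Dnajc10 (0.23), Syvn1 (0.21) and Dnajc3 (0.19) also rose. Derl3 was at -0.22 (adjusted p = 0.51). The strains differed in this change for 5 genes, all more positive in DBA/2J (1.86% of all genes), a count that was 11 without C57BL/6J control 6 h replicate 1 and 0 to 3 without any 1 of the other 6 h controls, C57BL/6J normoxia replicates 2 or 3 or any DBA/2J normoxia library. Under total counts it was 0, and the share of all calls more positive in DBA/2J went from 50.6% to 14.8%. A replicate block gave a higher count, stated in the closing section. Proximal tubule markers were higher than at 6 h in 8 of 10 genes, while every gene of the distal tubule (4), podocyte (5), endothelium (6) and fibroblast (5) lists was lower. Summed proximal tubule markers were at 9464 to 17350 CPM at 6 h and 28740 to 36100 in normoxia in C57BL/6J, and at 19150 to 24020 and 43650 to 47310 in DBA/2J. The mitochondrial share was 15.4% and 8.16% at 6 h against 23.9% and 12.3%, and the part of these shifts was not tested.

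In the slices labelled normoxia-hyperoxia, all 32 genes were lower than in the 24 h controls, against 34.1% of all genes. The median log2 difference was -1.0, against 0.0036 over all genes, and in all 32 every library lay below every control of its strain (33.1% of all genes). Creld2 led the chaperones, with 28.2, 24.7 and 24.2 CPM in C57BL/6J and 30.2, 29.2 and 31.1 in DBA/2J. It fell by 2.52 ± 0.079 (SE, adjusted p = 9.3e-12 by edgeR). Pdia4 was at 89.5, 82.3 and 84.7 CPM and 75.02, 75.6 and 96.9 and fell by 2.35 ± 0.081 (SE, adjusted p = 1.7e-11). Derl3 was at 1.01, 0.955 and 0.907 CPM and 1.55, 1.42 and 2.26, again near 1, and fell by 4.72 ± 0.16 (SE, adjusted p = 1.3e-11). Atf6 fell by 1.09 ± 0.062, to 107, 108 and 117 CPM in C57BL/6J and 99.7, 99.3 and 118 in DBA/2J. Sec61a1 fell by 0.96 ± 0.059, to 125, 109 and 122 CPM and 114, 116 and 132. Hspa5 fell by 1.6 ± 0.12, Dnajb9 by 0.82, Xbp1 by 0.51, Herpud1 by 0.48 and Eif2ak3 by 0.31. All 32 were called again without the shallow DBA/2J replicate 2. Cell markers differed as well: 7 of 10 proximal tubule genes were lower, and 4 of 4 loop of Henle, 4 of 4 distal tubule, 7 of 7 collecting duct, 4 of 5 podocyte, 4 of 6 endothelial, 6 of 7 macrophage and leukocyte and 6 of 6 tested B and plasma cell genes were higher than in the 24 h controls. B and plasma cell genes summed to 435 to 956.7 CPM in DBA/2J and 35.05 to 69.71 in C57BL/6J, against 27.94 to 99.69 and 7.371 to 15.03 in the controls. Podocyte genes summed to 1216 to 2215 CPM against 751 to 1144 in DBA/2J, and endothelial genes to 1468 to 2142 against 685.9 to 1143. Summed collecting duct markers were at 1332 to 1736 CPM in C57BL/6J and 1053 to 1274 in DBA/2J, against 191.5 to 257.9 and 167.1 to 253.4 in the controls. Summed distal tubule markers were at 4430 to 7492 and 6294 to 7950 CPM, against 751 to 1197 and 1557 to 2088. The mitochondrial share was 14.1% and 13.7%, against 6.82% and 3.52%, and the part of these shifts in the ER gene result was not tested. Of the PERK-ATF4-CHOP arm 15 of 20 were lower and 2 higher, the 2 being Atf3 (1.97) and the phosphatase subunit Ppp1r15a (0.31). With total counts the median of all genes moved by -0.17 and the higher share of all calls from 50% to 39%. Between the strains 1 gene differed, Dnajc10 (0.46, adjusted p = 0.048 by edgeR), against 0.95% of all genes, and no gene did without any 1 of 9 of the 12 libraries (2 did without DBA/2J control replicate 2, and 1 without C57BL/6J control replicate 2 or C57BL/6J normoxia-hyperoxia replicate 2).

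Against the 6 h controls, 24 of the 32 were lower in normoxia-hyperoxia and 1 higher (22.5% and 22.4% of all genes), with a median of -0.45, and in 18 the libraries lay below every control of their strain (12.4% of all genes). The 1 higher was Ern1, at 0.24 (adjusted p = 0.017). Hspa5 fell by 0.93 ± 0.16 (SE, adjusted p = 3.0e-04 by edgeR), Pdia4 and P4hb by 0.85 each, Herpud1 by 0.69, Sec61b by 0.49 and Xbp1 by 0.38. Dnajb9 was at 0.058 (adjusted p = 0.81) and Derl3 at 0.13 (adjusted p = 0.66). The strains differed for 0 of 32 by edgeR (0.232% of all genes), 1 at an unadjusted p under 0.05 and 0 by DESeq2. Proximal tubule markers were lower in 10 of 10 genes, while 7 of 7 collecting duct, 7 of 7 macrophage and leukocyte and 3 of 4 distal tubule genes were higher and 4 of 5 fibroblast genes lower. Summed proximal tubule markers were at 1162 to 1496 CPM in C57BL/6J and 2471 to 3865 in DBA/2J, against 9464 to 17350 and 19150 to 24020 at 6 h, and the part of these shifts was not tested.

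The 2 oxygen conditions, titled kidney ischemia and kidney reperfusion, differed in 27 of the 32 genes. The titles do not say whether the 2 were run together. Against normoxia, normoxia-hyperoxia was higher in 8 of 32 genes and lower in 19 (37% and 36.5% of all genes), with a median of -0.26, against 0.020 over all genes. Higher were 5 chaperones and 3 of the 4 sensors and transducers. Lower were all 5 disulfide enzymes, 8 of 10 ERAD genes, both translocon subunits and 4 chaperones. The libraries did not overlap in either strain for 7 of the higher and 12 of the lower (28.4% and 25.3% of all genes).

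Hspa5 was at 2189, 1441 and 1753 CPM in C57BL/6J normoxia-hyperoxia and 1218, 1448 and 1825 in DBA/2J, above every normoxia library and below every control. It rose by 1.74 ± 0.13 (SE, adjusted p = 1.3e-08 by edgeR), or 3.35-fold. Dnajb9 was at 122, 82.2 and 94.6 CPM and 96.04, 87.2 and 118, and rose by 1.48 ± 0.10 (SE, adjusted p = 3.3e-09). Sdf2l1 (1.01), Manf (0.47) and Hyou1 (0.30) rose less, and Dnajc3 (-0.73), Dnajb11 (-0.62), Calr (-0.45) and Canx (-0.17) fell. Among the sensors, Ern1 was at 61.8, 50.005 and 63.4 CPM and 56.2, 59.97 and 65.6. It rose by 0.98 ± 0.071 (SE, adjusted p = 5.4e-09), with Atf6 at 0.65 and Eif2ak3 at 0.45, while Xbp1, at 167, 114 and 151 CPM in C57BL/6J and 105, 135 and 134 in DBA/2J, was at 0.14 (adjusted p = 0.18).

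P4hb fell most of the disulfide enzymes. It was at 665, 614 and 640.1 CPM in C57BL/6J normoxia and 437, 371 and 392 in normoxia-hyperoxia. The DBA/2J libraries were at 803, 797 and 865 CPM and 410.5, 422 and 456. The groups were separate in both strains, with a fall of 0.90 ± 0.066 (SE, adjusted p = 6.6e-09 by edgeR). In ERAD, Derl2 was at 38.01, 34.4 and 32.8 CPM in C57BL/6J normoxia and 23.6, 18.1 and 21.9 in normoxia-hyperoxia. Its DBA/2J values were 61.9, 57.2 and 61.6 CPM and 23.3, 27.2 and 25.4. Derl2 fell by 1.08 ± 0.072 (SE, adjusted p = 2.0e-09), Edem2 by 1.01 and Derl1 by 0.94. Herpud1, at 179, 145 and 158 CPM in C57BL/6J and 134, 159.6 and 195 in DBA/2J, was at -0.09 (adjusted p = 0.36), and at 0.0013 under total counts. Derl3 was at 0.30 (adjusted p = 0.33). Sec61b was at 28.9, 25.8 and 25.6 CPM in C57BL/6J normoxia and 20.8, 16.7 and 17.6 in normoxia-hyperoxia. DBA/2J libraries held 33.7, 27.3 and 29.2 CPM and 23.4, 21.5 and 18.7. It fell by 0.61 ± 0.087 (SE, adjusted p = 1.1e-05), without overlap.

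Between the same 2 conditions the PERK-ATF4-CHOP arm was higher in 16 of 20 genes and lower in 3, with a median of 2.63, led by Atf3 (9.4), Chac1 (5.92) and Ppp1r15a (5.54). Of the other ER folding genes 4 of 30 were higher, led by Ero1a (3.28), and 20 lower, and of the translocation genes 6 of 22 were higher and 14 lower. Proximal tubule markers were all lower (10 of 10), at 1162 to 1496 CPM in C57BL/6J and 2471 to 3865 in DBA/2J in sum. Higher were 4 of 4 distal tubule, 6 of 7 collecting duct, 5 of 5 podocyte, 6 of 6 endothelial, 3 of 5 fibroblast and 6 of 7 macrophage and leukocyte genes, with distal tubule sums of 6294 to 7950 CPM against 1664 to 2368 in DBA/2J and 4430 to 7492 against 3056 to 4187 in C57BL/6J. Loop of Henle sums were at 13650 to 15320 CPM in DBA/2J, against 4626 to 6498 in normoxia. In C57BL/6J these sums overlapped (9008 to 23040 against 11890 to 18970). Macrophage and leukocyte sums were at 1633 to 1770 CPM against 413.2 to 515.2 in DBA/2J. In C57BL/6J they were at 810.9 to 1099 against 654.3 to 691.3. Mitochondrial genes took 14.1% of C57BL/6J counts in normoxia-hyperoxia and 23.9% in normoxia, with 13.7% and 12.3% in DBA/2J, and the part of these shifts in the result was not tested. The strains differed in the change for 16 of 32 genes, all more negative in DBA/2J, against 11% of all genes in that direction. Under total counts 10 genes passed, and the share of all calls more positive in DBA/2J went from 39.6% to 70.1%. Sel1l (-0.79, adjusted p = 8.2e-04 by edgeR) and Calr (-0.71) differed most. This test and that of normoxia against the 24 h controls share the normoxia libraries.

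The strains are compared here in the controls, normoxia and normoxia-hyperoxia; in the drug groups 0 to 3 of the 32 were higher and 0 to 3 lower in DBA/2J, where 14.8% to 32.6% of all genes were called. In normoxia 22 of the 32 genes were higher in DBA/2J and 0 lower, against 28.3% of all genes higher, and all 32 differences were positive with a median of 0.44. In the 6 h controls 4 were higher and 1 lower (13.6% and 12.7% of all genes), in the 24 h controls 0 higher and 2 lower (13.9% and 8.27%), and in normoxia-hyperoxia 2 higher and 2 lower (14.3% and 11.3%). These counts moved with the groups fitted beside them: over the fits that hold the same libraries, 2 to 4 were higher and 0 or 1 lower in the 6 h controls, 0 higher and 1 to 4 lower in the 24 h controls, 20 to 23 higher in normoxia, and 2 higher and 1 or 2 lower in normoxia-hyperoxia. Under total counts the share of all calls that were higher in DBA/2J went from 51.7% to 75.7% in the 6 h controls and from 55.8% to 74% in normoxia-hyperoxia. Dnajc10, the ER reductase that also serves ERAD, was called in 3 of these 4 conditions. At 6 h it was at 40.9, 41.3 and 41.3 CPM in C57BL/6J and 71.2, 72.97 and 69.6 in DBA/2J. In normoxia it was at 50.4, 50.6 and 45.6 CPM and 76.97, 80.8 and 86.1, and in normoxia-hyperoxia at 34.98, 38.1 and 37.7 and 57.4, 59.8 and 59.9. DBA/2J was higher in these 3 conditions without overlap, by 0.64 ± 0.078 (SE, adjusted p = 3.8e-05 by edgeR), 0.81 (adjusted p = 8.1e-07) and 0.58 (adjusted p = 5.1e-05). In the 24 h controls Dnajc10 was at 103, 89.1 and 98.8 CPM and 109.9, 105 and 112, and the difference was 0.14 (adjusted p = 0.23).

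In the 6 h controls Derl2 (0.41), Edem2 (0.38) and Eif2ak3 (0.38) were also higher in DBA/2J, and Hspa5 was lower by 0.60 ± 0.18 (SE, adjusted p = 0.023 by edgeR). In the fits of the same 6 h controls with other groups, Hspa5 passed with normoxia (adjusted p = 0.036) but not with tunicamycin (0.074), cyclosporin A (0.087) or normoxia-hyperoxia (0.062). In the 24 h controls Pdia6 (-0.30) and Sel1l (-0.33) were lower in DBA/2J. In normoxia, beside Dnajc10, Derl3 (1.01, adjusted p = 0.046), Derl2 (0.85), Sel1l (0.77), Dnajb11 (0.76) and Calr (0.74) were among the genes called, while Hspa5 was at 0.37 (adjusted p = 0.1). In normoxia-hyperoxia Edem2 (0.39) was higher and Dnajc3 (-0.41) and Edem3 (-0.23) lower in DBA/2J. Reads of both strains were set against GRCm38, the C57BL/6J reference, and its part in differences between the strains was not tested. Summed proximal tubule markers were higher in every DBA/2J library than in every C57BL/6J library in normoxia, as given above, and the mitochondrial share was lower. The same separation of proximal tubule sums was present in the 6 h controls, the 24 h controls and normoxia-hyperoxia, where 5, 2 and 4 members were called. B and plasma cell genes were also apart in the 6 h controls (147.3 to 503.7 CPM in DBA/2J and 23.21 to 34.09 in C57BL/6J). The same held in the 24 h controls (27.94 to 99.69 and 7.371 to 15.03) and in normoxia-hyperoxia (435 to 956.7 and 35.05 to 69.71). Loop of Henle, collecting duct, podocyte and endothelial sums were lower in DBA/2J without overlap in the 6 h controls. In the 24 h controls podocyte and endothelial sums were lower and distal tubule sums higher in DBA/2J, without overlap. In normoxia-hyperoxia collecting duct sums were lower and macrophage and leukocyte sums higher in DBA/2J, without overlap. In normoxia all other lists differed too: B and plasma cell genes summed to 174.6 to 742.1 CPM in DBA/2J and 35.16 to 49.12 in C57BL/6J, loop of Henle genes to 4626 to 6498 and 11890 to 18970, and collecting duct genes to 500.2 to 660.8 and 1100.0 to 1140.0. Distal tubule genes (1664 to 2368 against 3056 to 4187) and podocyte genes (495.5 to 665.4 against 906.4 to 1173) were also lower in DBA/2J. So were endothelial (459.3 to 764.2 against 905.8 to 1277) and fibroblast genes (45.65 to 75.78 against 107.8 to 143.5). Macrophage and leukocyte genes were lower as well (413.2 to 515.2 against 654.3 to 691.3). The part of all these lists was not tested. The count for the 6 h controls was 2 without C57BL/6J replicate 2, 2 without DBA/2J replicate 2 and 1 without DBA/2J replicate 3, and that for the 24 h controls was 0 without C57BL/6J 24 h control replicates 1 or 3, DBA/2J 24 h control replicates 1 or 3 or DBA/2J 6 h control replicate 2, and 1 without DBA/2J 6 h control replicate 3.

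**Figure D5:**
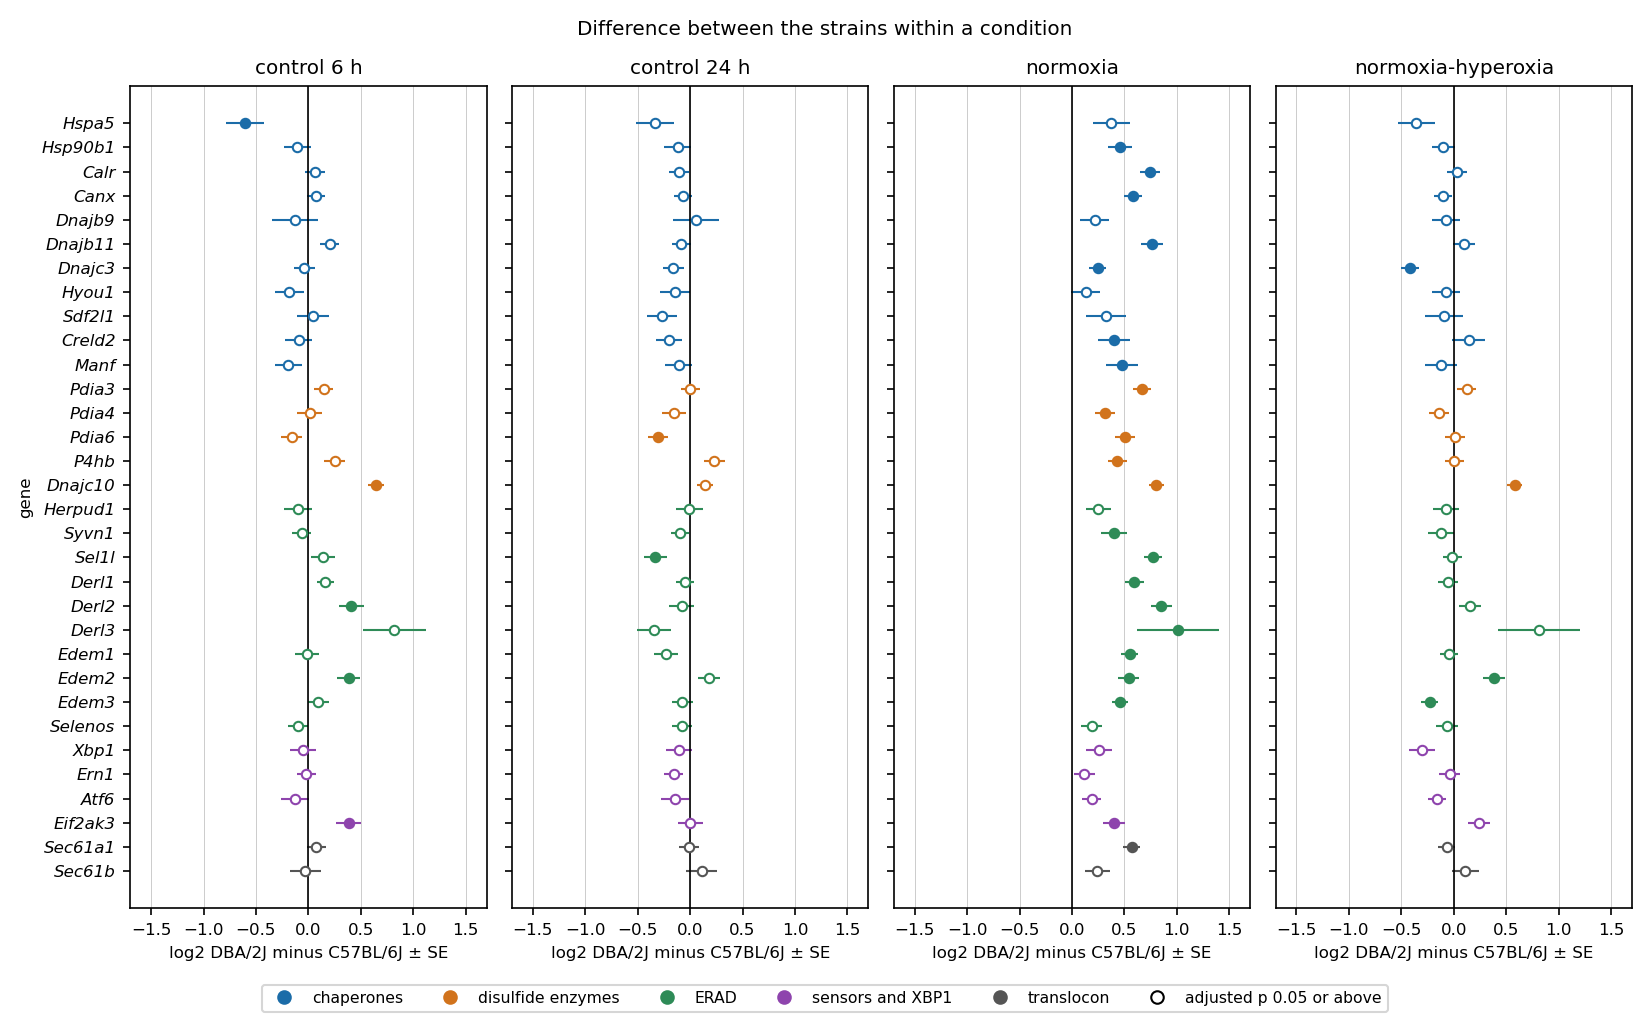
Log2 difference of DBA/2J minus C57BL/6J (points, bars of 1 SE, filled where the edgeR adjusted p was under 0.05) for the 32 genes in the 6 h controls, 24 h controls, normoxia and normoxia-hyperoxia. In normoxia all 32 points lie right of 0 and 22 are filled, against 5, 2 and 4 filled in the other 3 panels.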

How the data were processed

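Total RNA from kidney slices was extracted, made into stranded mRNA libraries and sequenced, per the labels' protocols. The authors deposited raw counts per Ensembl gene for 48 libraries (55487 genes, whole numbers, no normalization). The submitters' processing notes name bcl2fastq 2.20.0, FastQC 0.11.8, STAR 2.7.9a, featureCounts 1.5.1 and GRCm38; the strand setting and annotation release are not given in the sources used here, so counts where exons overlap another gene are uncertain. The largest overlaps with any 1 other gene were 10.3% of the exon length of Hsp90b1, 8.16% of Sec61a1, 8.05% of Eif2ak3, 4.71% of Manf and 2.87% of Derl2; Hsp90b1 and Manf each overlap 3 genes.

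The 32 members and all lists were chosen with earlier results of these data known. Each comparison was fitted on the 12 libraries of its 4 groups (24 for the difference between tunicamycin responses) with edgeR 4.0.16 in R 4.3.3, using TMM scaling, its expression filter and the robust quasi-likelihood test, with Benjamini-Hochberg adjustment over all genes tested and a threshold of 0.05; all 32 members passed the filter in every comparison. Log2 differences over both strains are the mean of both strains' changes. The SE of a log2 difference is its absolute value divided by the square root of the edgeR test's F statistic. CPM is the count scaled to a library total of 1000000, and RPKM divides it by exon length from GENCODE M21. In each class, the member with the largest change past the threshold was given in every library, with Hspa5, Dnajb9, Herpud1, Xbp1 and Derl3 throughout; other genes came from the pathway lists, at most 3 in each direction. Alternatives were relative log expression (RLE) scaling factors in edgeR, the test of DESeq2 1.42.0, total counts and no expression filter. Others were all 48 libraries in 1 fit, a replicate block and leaving out each library. The fit was tested on simulated data.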

Additional observations from a re-analysis of the deposited data

Results flagged for a closer look

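The log2 change from the 24 h controls to normoxia differed between the strains for 21 genes by a test of the difference itself (DBA/2J change minus C57BL/6J change, edgeR adjusted p under 0.05). Among the chaperones the differences were Hspa5 (0.72), Hsp90b1 (0.58), Calr (0.86), Canx (0.66), Dnajb11 (0.86), Dnajc3 (0.41), Sdf2l1 (0.60) and Manf (0.59). Among the disulfide enzymes the differences were Pdia3 (0.68), Pdia4 (0.48), Pdia6 (0.82) and Dnajc10 (0.68). Among the ERAD genes the differences were Syvn1 (0.51), Sel1l (1.11), Derl1 (0.65), Derl2 (0.94), Edem1 (0.79) and Edem3 (0.54). Among the sensors and transducers the differences were Xbp1 (0.38) and Eif2ak3 (0.41). In the translocon it was Sec61a1 (0.59). In all 21 the DBA/2J change was the more positive, from 0.38 to 1.11.

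The same test against the 6 h controls passed for 5 genes, Calr (0.65), Dnajb11 (0.52), Pdia3 (0.48), Pdia6 (0.64) and Sel1l (0.60). From the 24 h controls to normoxia-hyperoxia it passed for 1 gene, Dnajc10 (0.46).

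The change from normoxia to normoxia-hyperoxia differed between the strains for 16 genes, with the DBA/2J change the more negative in each. Among the chaperones the differences were Hsp90b1 (-0.56), Calr (-0.71), Canx (-0.69), Dnajb11 (-0.66) and Dnajc3 (-0.66). Among the disulfide enzymes the differences were Pdia3 (-0.55), Pdia4 (-0.45), Pdia6 (-0.50) and P4hb (-0.43). Among the ERAD genes the differences were Sel1l (-0.79), Derl1 (-0.65), Derl2 (-0.70), Edem1 (-0.60) and Edem3 (-0.69). Among the sensors and transducers it was Xbp1 (-0.56). In the translocon it was Sec61a1 (-0.64). The tests that use normoxia share its 6 libraries, so they are not independent of each other.

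The tunicamycin response was larger at 24 h than at 6 h for 10 genes by a test of that difference, Calr (0.73), Dnajb11 (0.55), Dnajc3 (0.67), Creld2 (0.86), Manf (0.76), Pdia3 (0.65), Pdia4 (0.79), Pdia6 (0.56), Herpud1 (0.91) and Syvn1 (0.83). The differences ranged from 0.55 to 0.91 on the log2 scale. With 3 libraries in each group, no library was tested for standing apart from its group.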

How the results depend on the processing

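Of 4649 member values under alternative settings, 4313 kept their direction and side of the threshold, 291 lost a call, 10 gained one and 35 changed sign. Of these, Derl2 in normoxia against the 24 h controls was a call: it rose by 0.27 and was at -0.0082 (adjusted p = 0.92) under total counts. Leaving out 1 library gave, for tunicamycin at 6 h, -0.0645 to 0.181 for Hspa5, -0.064 to 0.199 for Dnajb9, -0.0374 to 0.128 for Herpud1 and -0.134 to 0.0263 for Xbp1. For cyclosporin A at 6 h it gave -0.0691 to 0.171 for Hspa5, -0.0242 to 0.247 for Dnajb9, -0.0169 to 0.157 for Herpud1 and -0.0609 to 0.107 for Xbp1, at 24 h -0.147 to 0.144 for Derl3, and for normoxia-hyperoxia against 6 h controls -0.0504 to 0.221 for Dnajb9. Total counts in place of scaling factors gave -0.0022 for Hspa5 and -0.011 for Xbp1 (cyclosporin A 6 h), 0.010 for Derl3 (cyclosporin A 24 h), -0.0082 for Derl2 (normoxia) and 0.0013 for Herpud1 (normoxia-hyperoxia against normoxia).

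Counts of changed members that moved by over 1.5 times were these. DESeq2 gave 8 instead of 0 (tunicamycin 24 h, C57BL/6J), 22 instead of 10 (the same, DBA/2J), 18 instead of 10 (24 h against 6 h tunicamycin response), and for differences between strains 1 instead of 0 (time), 9 instead of 5 (normoxia against 6 h) and 2 instead of 1 (normoxia-hyperoxia against 24 h). Total counts gave 3 instead of 10 (tunicamycin, DBA/2J), 1 instead of 0 (time between strains), 0 instead of 5 (normoxia against 6 h between strains), 10 instead of 16 (normoxia-hyperoxia against normoxia between strains), 9 instead of 5 (strains at 6 h) and 1 instead of 2 (strains at 24 h). The fit of all 48 libraries gave 5 instead of 0 (tunicamycin, C57BL/6J), 18 instead of 10 (DBA/2J), and between strains 1 instead of 0 (time), 12 instead of 21 (normoxia against 24 h) and 3 instead of 5 (normoxia against 6 h). RLE scaling factors in edgeR gave 1 (time between strains) and 2 (normoxia against 6 h between strains). No filter gave 4 (time between strains) and 5 instead of 2 (strains at 24 h).

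Leaving out 1 library gave 11 to 26 members for tunicamycin at 24 h, 0 to 14 in C57BL/6J and 0 to 21 in DBA/2J, 10 to 27 against cyclosporin A, 5 to 19 for the 24 h against 6 h response, and between strains 0 to 1 for time, 12 to 22 for normoxia against 24 h, 0 to 11 against 6 h, 0 to 2 for normoxia-hyperoxia against 24 h, 11 to 19 against normoxia, 1 to 6 for the 6 h controls and 0 to 3 for the 24 h controls. Counts for time, normoxia and normoxia-hyperoxia over both strains stayed within 1.5 times under every setting, and the cause of the other moves was not tested.

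Whether replicate numbers pair the samples was not settled. The deviations of same-numbered pairs had a positive mean correlation in all 12 comparisons (mean r 0.014 to 0.18). In none did every pair correlate above 0.1. A replicate block gave 10 instead of 5 for normoxia against 6 h between strains and no other count beyond 1.5 times. Low counts limit Derl3 outside the 24 h controls and drugs, and 3 libraries a group limit every single-strain test.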
